A study of Bos taurus with 12 samples.

Results

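Sperm small RNA of bulls at 12 months of age was compared with the mean of the same bulls at 10 and 16 months, so that a rise or a fall at the middle age stands apart from a steady change with age. The 4 libraries labelled 12 months were taken, of 12 in all, and each was set against the mean of the 4 libraries at 10 months and the 4 at 16 months, within each bull. The bulls were 4 untreated Holstein animals (breed label Holstein Friesian, no genotype given), and the labelled cell type was spermatozoa. The ages were chosen by the study as the stages before, around and after puberty, with 16 months as its control, and it did not test 12 months against both other ages. The semen of 5 frozen straws was combined for each extraction, and each bull gave 1 library at each age, so a bull's age cannot be told apart from the ejaculate, the extraction or the library made at that age. The methods in the paper hold a detergent wash that lyses somatic cells, while the protocol deposited with the samples goes straight from the saline washes to sperm lysis.

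A mature sperm cell makes almost no new RNA and carries a small load of short RNA from spermatogenesis and from vesicles met in the epididymis. A microRNA (miRNA) is cut from a hairpin precursor into a short mature strand that pairs with messenger RNAs and represses them. Fragments of transfer RNAs (tRNAs) are abundant in mammalian sperm and are known to respond to the condition of the father, and the remainder of a sperm library is mostly made of pieces of ribosomal, nuclear and other non-coding RNAs.

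The values were counts of reads per reference sequence. The table held 5481 names, and 4651 of them had at least 1 count and were tested, which were 1089 miRNAs (797 hairpin and 292 mature names), 60 tRNA names and 3502 other non-coding RNAs that carry Ensembl transcript identifiers and no gene name here. Most let-7 names do not tell a hairpin from a mature strand, and all were counted with the hairpins, also bta-let-7a-3p, whose name is that of a mature arm (0.0833 counts per library on average). Totals per library were 3306357 to 3853639 counts at 12 months, 2167864 to 5119360 at 10 months and 1914389 to 3448801 at 16 months. The miRNAs held only 62492 to 106595 of these counts at 12 months, and 35 of the 292 mature names averaged 10 counts or more in a library, so single mature miRNAs were measured with little precision. Levels are given as normalized CPM, that is counts scaled to a common library size by the trimmed mean of M-values (TMM) and given per 1e6 counts, and are compared between ages for 1 sequence at a time because fragments of different references differ in length. The library of bull 4 at 10 months stood apart in its most abundant sequence, and values without it are given for the counts of calls and for sequences whose call it changed.

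At 12 months the libraries were more dominated by a few sequences than at either other age in bulls 1, 2 and 3, and less so in bull 4. ENSBTAT00000060546.1, the sequence with the most counts, took 11.5%, 14.2%, 8.93% and 40.1% of all counts in bulls 1 to 4 at 10 months. It took 37.7%, 32.4%, 45.0% and 32.6% at 12 months and 32.2%, 19.8%, 10.3% and 31.6% at 16 months. The 12-month library was the highest of the bull's 3 in bulls 1, 2 and 3, while in bull 4 the 10-month library was. The mean difference from the other ages was 15.9 ± 15.7 percentage points (SD over 4 bulls), with 3 of the 4 bulls above 0 (exact permutation test, two-sided, over the 81 ways of drawing the focal age within bulls, p = 0.0370, adjusted over 10 measures p = 0.0926). Without bull 3 the difference was 9.37 percentage points (exact permutation test, p = 0.259) and without bull 4 it was 22.2 (exact permutation test, p = 0.0370). With only the 10-month library of bull 4 left out it was 16.9. That library was singled out by this same share, so the value is a description and not a test.

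The second sequence by mean share over the libraries, ENSBTAT00000060540.1, moved less. Its share was 8.41%, 9.44%, 12.6% and 16.0% in bulls 1 to 4 at 10 months, 17.3%, 13.9%, 17.0% and 14.9% at 12 months and 12.7%, 17.4%, 14.0% and 13.0% at 16 months. It was above the mean of the other ages in 4 of 4 bulls, yet the 12-month library was the highest of the 3 in bulls 1 and 3 only, and the mean difference was 2.85 ± 3.00 percentage points (exact permutation test, p = 0.198, adjusted p = 0.247). ENSBTAT00000050869.1, close to it in mean share and slightly ahead of it in total counts, took 13.5%, 21.7%, 17.3% and 11.1% in bulls 1 to 4 at 10 months, 7.19%, 12.5%, 6.57% and 14.2% at 12 months and 6.69%, 13.0%, 18.1% and 20.1% at 16 months. It was the lowest of the 3 at 12 months in bulls 2 and 3 only. The 10 most abundant sequences together took 68.0% ± 10.2 (SD over 4 bulls) of the counts at 10 months, 79.3% ± 1.87 at 12 months and 71.8% ± 5.58 at 16 months. Their difference was 9.42 ± 9.01 percentage points, again with bull 4 the other way (exact permutation test, p = 0.0370, adjusted p = 0.0926), and its size without bull 3 was 6.54. The spread between bulls in this share was smallest at 12 months.

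**Figure D1:**
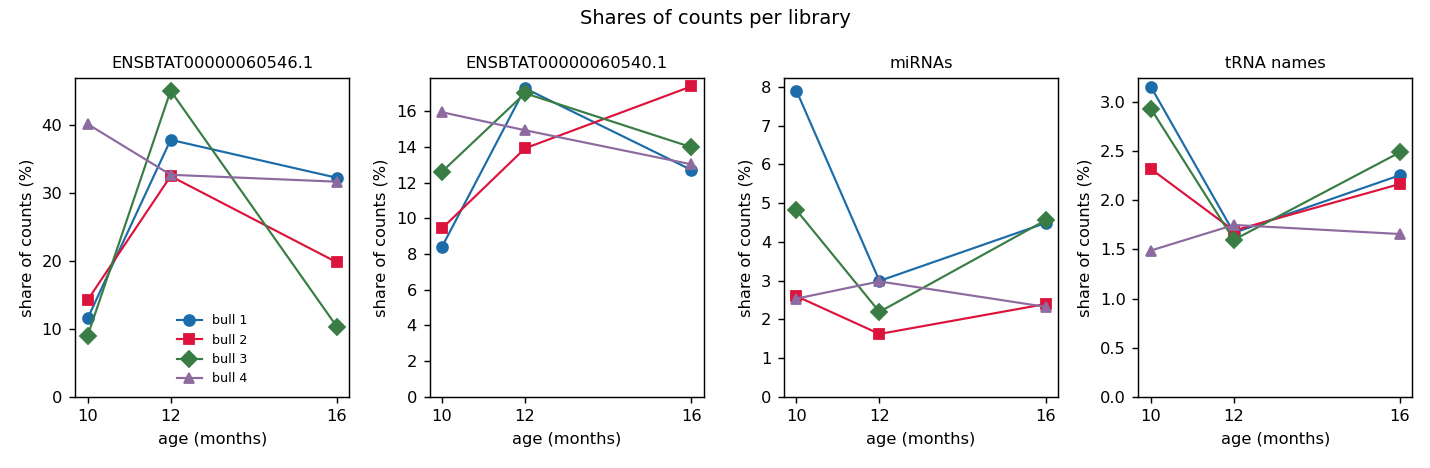
Share of counts in percent (vertical axes, from 0) against age in months for the most abundant sequence, the second by mean share, all miRNAs and all tRNA names, with 1 line per bull and 1 point per library. Bulls 1, 2 and 3 peak at 12 months in the first panel and dip in the miRNA and tRNA panels, and bull 4 does neither.

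The miRNAs and tRNA fragments showed the other side of this shift. The miRNA share was 7.90%, 2.60%, 4.82% and 2.53% in bulls 1 to 4 at 10 months, 2.99%, 1.62%, 2.19% and 2.98% at 12 months and 4.48%, 2.39%, 4.56% and 2.32% at 16 months. It was the lowest of the bull's 3 values in bulls 1, 2 and 3 and the highest in bull 4, with a mean difference of -1.51 ± 1.68 percentage points (exact permutation test, p = 0.0988, adjusted p = 0.141). Without bull 1 the difference was -0.940. The tRNA share was 3.16%, 2.32%, 2.93% and 1.49% at 10 months, 1.67%, 1.69%, 1.60% and 1.75% at 12 months and 2.26%, 2.17%, 2.49% and 1.66% at 16 months. The 12-month values lay within a narrow band, below both other ages in bulls 1, 2 and 3, and the mean difference was -0.632 ± 0.594 percentage points (exact permutation test, p = 0.0494, adjusted p = 0.0988), and -0.471 with bull 3 left out. With the 10 most abundant sequences taken out of the denominator the tRNA difference turned to 0.441 percentage points, higher in 3 of 4 bulls (exact permutation test, p = 0.136), and the miRNA difference was -0.851 (p = 0.395 by the same exact test). The other non-coding RNAs took 95.9% ± 0.688 (SD over 4 bulls) at 12 months, a difference of 2.14 ± 2.26 percentage points (exact permutation test, p = 0.0617, adjusted p = 0.103), and 1.44 without bull 1. Their difference was 1.27 without the most abundant sequence (exact permutation test, p = 0.136). Without the 10 most abundant it was 0.410, higher in 2 of 4 bulls (exact permutation test, p = 0.568).

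Measures of evenness went the same way, but they are computed from the same counts as the shares and are not separate evidence. They were not recomputed without the most abundant sequences. The effective number of sequences, the exponential of the Shannon entropy of the counts, was 73.6, 35.2, 58.4 and 16.7 in bulls 1 to 4 at 10 months, 18.4, 21.1, 15.1 and 21.9 at 12 months and 33.2, 33.7, 50.9 and 20.5 at 16 months. It was lowest at 12 months in bulls 1, 2 and 3 and highest in bull 4 (exact permutation test, p = 0.0370, adjusted p = 0.0926). At an equal depth of 1914389 counts, 4222 ± 29.6 sequences would be expected at 12 months (SD over 4 bulls), against 4302 ± 51.5 at 10 months and 4279 ± 46.7 at 16 months, a difference of -68.9 ± 57.8 with the same exact p. The mature share of the miRNA counts did not move beyond its spread (2.43% ± 0.451 at 10 months, 2.44% ± 0.203 at 12 months and 2.42% ± 0.117 at 16 months, exact permutation test, p = 0.864). Library totals did not separate the ages either (exact permutation test, p = 0.457). No measure of the 10 passed the adjustment.

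Of all 4651 sequences 2304 had a log2 fold change above 0, and 293 were higher and 348 lower in 4 of 4 bulls. Among the sequences called, more were higher than lower at 12 months. Of the 4651 tested, 215 (4.62%) were called, that is differed 1.5-fold or more at an unadjusted p up to 0.05, with 150 higher (3.23%) and 65 lower (1.4%), so that 69.8% of the calls were higher. Scaling by library totals in place of TMM moved the log2 fold change of the median sequence to -0.49 and the calls to 14 higher and 1226 lower, 1.13% of them higher. The TMM factors were 0.754 to 0.834 at 12 months and 0.848 to 1.54 in the other 8 libraries, so the direction of small changes depends on the scaling, and changes are given relative to the bulk of the sequences. By class, 129 other non-coding RNAs were called higher and 38 lower, of miRNA hairpins 18 and 23, of mature miRNAs 2 and 4, and of tRNA names 1 and 0. In the same order 4.77%, 5.14%, 2.05% and 1.67% of the tested names of each class were called. The mean count was under 10 per library for 42 of the 215. Without bull 4 the calls were 183 higher and 145 lower, and without its 10-month library alone 159 and 91.

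After Benjamini-Hochberg adjustment in edgeR's quasi-likelihood test over all 4651 sequences, 8 passed an adjusted p of 0.05 (0.172%), 7 higher and 1 lower. Taking each of the other ages as the one set against the mean of the remaining ages, in the same fit and on the same libraries, gave 13 higher and 7 lower for 10 months, and 0 for 16 months, where 188 had an unadjusted p of at most 0.05. These are the end ages, so a steady change with age can add to their counts. The number of adjusted calls changed with the bulls kept, and leaving out a bull also leaves fewer libraries. With each bull left out in turn, ENSBTAT00000060494.1 kept a log2 fold change of 0.76 to 0.85 while its edgeR adjusted p reached 0.209. That of ENSBTAT00000062960.1 ran from 1.16 to 2.51. There were 2 higher and 1 lower without bull 1, 0 of either without bull 2 (325 at an unadjusted p of at most 0.05), 1 higher and 0 lower without bull 3, 33 higher and 12 lower without bull 4, and 19 higher and 4 lower without the 10-month library of bull 4 alone. With age alone in the model and no block for the bull there were 0 (236 at an unadjusted p of at most 0.05), and with edgeR's filterByExpr there were 0, the smallest adjusted p being 0.0644. Library totals in place of TMM gave 5 higher and 321 lower after adjustment, so the balance of directions depends on the scaling.

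A peak or a trough needs both neighbours. In the same direction against 10 months and against 16 months, with the larger of the 2 p-values at most 0.05, 61 sequences were higher (1.31%) and 28 lower (0.602%). By the same rule 91 were higher and 36 lower at 10 months, and 11 and 19 at 16 months. At these end ages a steady change with age can pass the rule, which it cannot at 12 months. At 12 months none passed after adjustment of that larger p in edgeR, or by DESeq2 with the block, and 3 did without bull 4. The lower count at that p was 16 without bull 2 and 49 without bull 4. Past both comparisons there were 5 higher and 590 lower with library totals, 34 and 9 by DESeq2 with the block, and 30 and 12 with no block. The 2 comparisons share the 12-month libraries. By rank alone, among the 3442 sequences that averaged 10 counts or more, the 12-month library was the highest of the bull's 3 in 4 of 4 bulls for 76 (2.21%) and the lowest for 50 (1.45%). The same counts by rank, which a steady change can also add to at the end ages, were 51 and 52 for 10 months and 21 and 34 for 16 months.

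**Figure D2:**
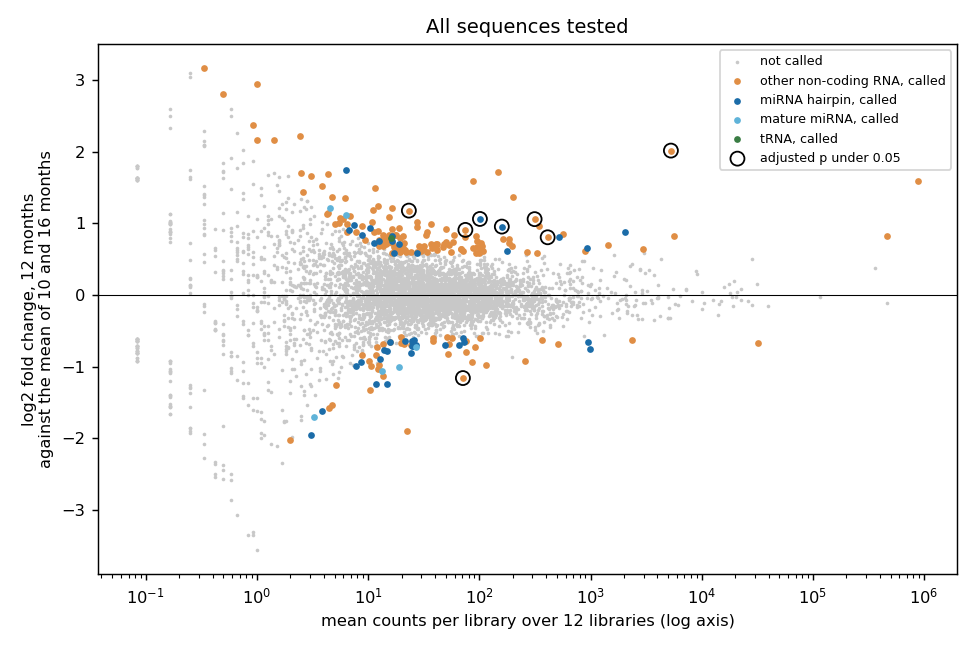
Log2 fold change at 12 months against the mean of 10 and 16 months (vertical axis) for each tested sequence against its mean count over 12 libraries (horizontal log axis), with calls coloured by class and the 8 sequences with an adjusted p under 0.05 ringed. Orange points of other non-coding RNAs make up most calls above 0, with 129 of 150, but they were also 3502 of the 4651 tested. Of this class 4.77% were called in either direction, near the 4.62% of all sequences. The spread widens below about 10 counts.

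The largest change among the 8 belonged to ENSBTAT00000062960.1. It lay at 725, 404, 84.2 and 2501 normalized CPM in bulls 1 to 4 at 10 months, 3390.2, 2792, 1969 and 3246 at 12 months and 2843, 1463, 159.5 and 1854 at 16 months. The 12-month library was the highest of the 3 in every bull, by little in bull 1 against 16 months and by a wide margin in bull 3, whose 10- and 16-month libraries were the lowest of the 12. The log2 fold change was 2.01 ± 0.38 (SE), a 4.04-fold difference (edgeR, adjusted p = 0.0276), and was 1.16 without bull 3. Separately it was 2.54 ± 0.47 against 10 months and 1.48 ± 0.45 against 16 months. ENSBTAT00000060546.1, the most abundant sequence, differed by 1.59 ± 0.36 (SE), 3.01-fold (edgeR, adjusted p = 0.0618), and by 1.06 without bull 3. Without the 10-month library of bull 4, which was singled out by this same sequence, it differed by 1.76.

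ENSBTAT00000065829.1 and ENSBTAT00000063000.1 had the same shape at lower levels. ENSBTAT00000065829.1 was at 67.2, 35.4, 36.4 and 128 normalized CPM in bulls 1 to 4 at 10 months, 167, 155, 100.2 and 171 at 12 months and 141, 65.2, 41.7 and 135 at 16 months, highest at 12 months in 4 of 4 bulls (log2 fold change 1.06 ± 0.20 (SE), edgeR, adjusted p = 0.0276). ENSBTAT00000063000.1 was at 17.6, 9.70, 9.32 and 39.7 normalized CPM in bulls 1 to 4 at 10 months, 34.5, 27.5, 17.8 and 56.0 at 12 months and 16.7, 15.0, 8.40 and 39.0 at 16 months. Each bull peaked at 12 months, although bull 4 at its lower ages stood above the peaks of bulls 1 to 3 (log2 fold change 0.91 ± 0.18 (SE), edgeR, adjusted p = 0.0276). ENSBTAT00000060494.1 was at 199, 65.2, 65.0 and 148 normalized CPM in bulls 1 to 4 at 10 months, 300.4, 123, 94.4 and 212 at 12 months and 185, 61.6, 35.8 and 119 at 16 months. Its rise was of like size in each bull, and leaving out any bull kept the log2 fold change between 0.76 and 0.85 (0.80 ± 0.17 (SE) with all bulls, edgeR, adjusted p = 0.0374). With library totals it was 0.32 (edgeR, unadjusted p = 0.217) and that of ENSBTAT00000063000.1 0.43 (unadjusted p = 0.0719), so both lost their call, and ENSBTAT00000065829.1 at 0.56 (unadjusted p = 0.029) fell under the 1.5-fold rule. ENSBTAT00000060501.1, at 9.26, 6.08, 7.06 and 2.06 normalized CPM in bulls 1 to 4 at 10 months, 21.9, 14.1, 5.44 and 6.03 at 12 months and 7.56, 4.51, 2.47 and 2.58 at 16 months, peaked in bulls 1, 2 and 4, while bull 3 was higher at 10 months (log2 fold change 1.18 ± 0.24 (SE), edgeR, adjusted p = 0.0371).

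Only ENSBTAT00000062556.1 passed the adjustment in the other direction. Its level was 35.8, 26.6, 44.4 and 13.2 normalized CPM in bulls 1 to 4 at 10 months, 15.9, 6.20, 13.4 and 7.04 at 12 months and 13.5, 11.7, 40.5 and 13.2 at 16 months. The 12-month library was the lowest in bulls 2, 3 and 4, and in bull 1 the 16-month one was slightly lower. The log2 fold change was -1.16 ± 0.24 (SE) (edgeR, adjusted p = 0.0371), which was -1.48 ± 0.26 against 10 months and -0.84 ± 0.27 against 16 months. Other sequences lower in 4 of 4 bulls had adjusted p-values of 0.117 or more in edgeR, with log2 fold changes of -0.92 (ENSBTAT00000059742.1), -0.94 (ENSBTAT00000060030.1), -0.80 (ENSBTAT00000061835.1) and -0.68 (ENSBTAT00000059542.1). The last 2 were lowest at 12 months in every bull. Without the 10-month library of bull 4 the edgeR adjusted p was 0.011 for ENSBTAT00000059742.1 and 0.0423 for ENSBTAT00000060030.1. ENSBTAT00000059542.1 was at 16.4, 17.9, 23.5 and 15.0 normalized CPM in bulls 1 to 4 at 10 months, 8.90, 9.29, 17.4 and 10.1 at 12 months and 21.1, 12.0, 23.5 and 15.8 at 16 months. Without bull 1 it was just under the 1.5-fold rule (-0.58).

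ENSBTAT00000059605.1 differed unequally between the bulls. It was at 31.4, 32.9, 31.4 and 74.2 normalized CPM in bulls 1 to 4 at 10 months, 279.6, 96.4, 44.3 and 51.6 at 12 months and 35.8, 28.2, 39.8 and 43.8 at 16 months. Bull 1 at 12 months was far above the other 11 libraries, bull 2 at 12 months followed it, and bull 4 was lower at 12 than at 10 months. The log2 fold change of 1.37 ± 0.31 (SE) (edgeR, adjusted p = 0.0618) was 0.64 without the libraries of bull 1, still within the call rule, and 1.53 without the 10-month library of bull 4 (edgeR, adjusted p = 0.00406).

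**Figure D3:**
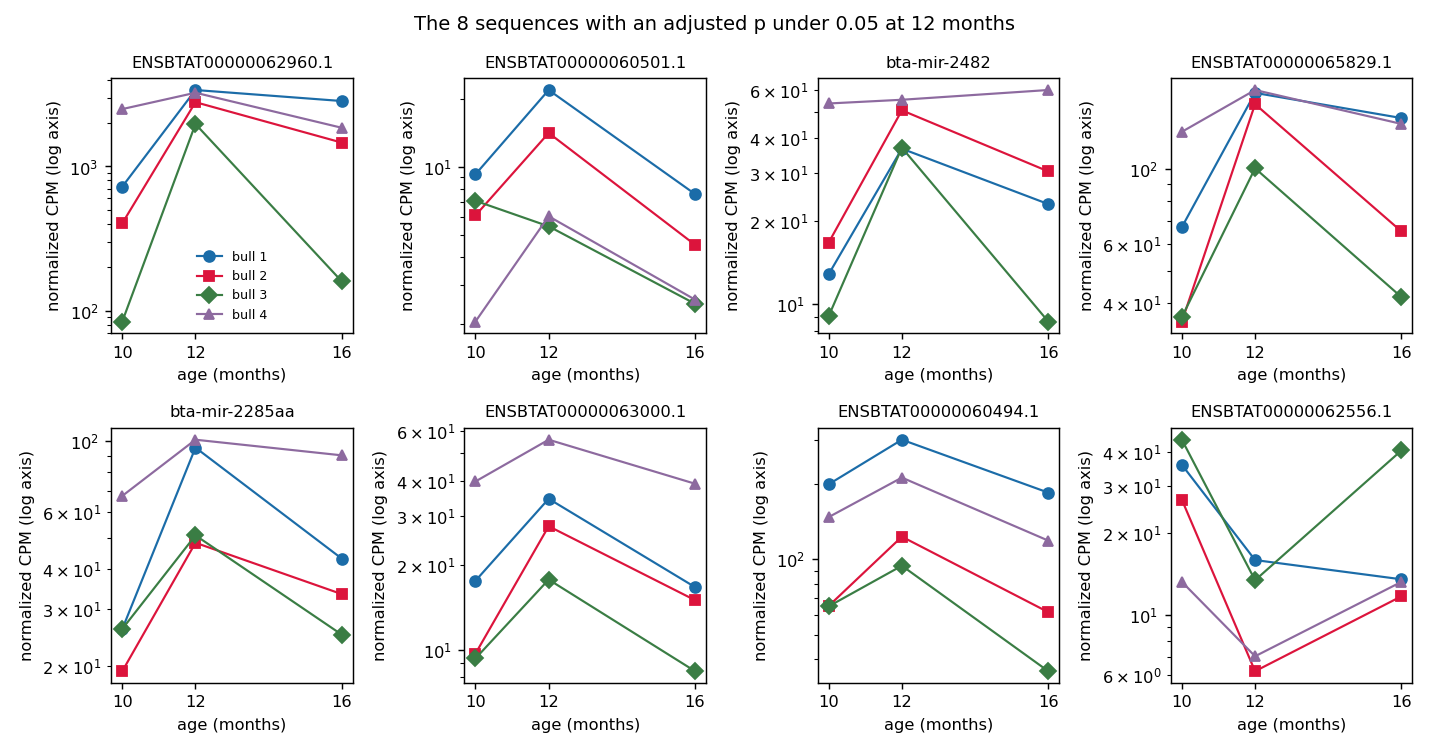
Normalized CPM (vertical log axes) against age in months for the 8 sequences with an adjusted p under 0.05, with 1 line per bull. In the 7 that were higher, the lines of bulls 1 and 2 peak at 12 months in each panel, bull 3 does not peak in ENSBTAT00000060501.1 and bull 4 does not in bta-mir-2482, while ENSBTAT00000062556.1 dips in bulls 2, 3 and 4.

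Not all abundant sequences took part in the shift. Of the 10 with the highest mean share, ENSBTAT00000060546.1, ENSBTAT00000060540.1 (log2 fold change 0.83 ± 0.28 (SE), edgeR, adjusted p = 0.395) and ENSBTAT00000062842.1 (-0.67 ± 0.27 (SE), adjusted p = 0.468) passed the call rule of fold and unadjusted p, the last of them lower. ENSBTAT00000062842.1 was lower than the mean of the other ages in 4 of 4 bulls, at 24120.2, 5325, 13948 and 9220.0 normalized CPM in bulls 1 to 4 at 10 months, 6747, 2738, 7346 and 9513 at 12 months and 7808, 2671, 15868 and 10416 at 16 months. The largest gap was in bull 1 at 10 months. ENSBTAT00000060574.1 was highest at 12 months in 4 of 4 bulls but by a log2 fold change of only 0.37 ± 0.25 (SE), which was -0.12 with library totals. The other 6 lay between -0.16 and 0.50 on the log2 scale and did not pass. Of these 6, ENSBTAT00000060563.1 was called without the 10-month library of bull 4 (log2 fold change 0.66, edgeR, unadjusted p = 0.009). ENSBTAT00000060540.1 lost its call without bull 1 (log2 fold change 0.55) and with library totals (0.31), and ENSBTAT00000062842.1 without bull 1 (-0.53) or bull 3 (-0.55).

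Among the miRNA hairpins 41 of 797 were called (5.14%, near the 4.62% of all sequences), 18 higher and 23 lower, and 2 of them, bta-mir-2285aa and bta-mir-2482, had an adjusted p under 0.05. Over hairpin and mature names together the calls were 20 higher and 27 lower, with 13 and 25 without bull 1, 30 and 25 without bull 2, 30 and 14 without bull 3, 27 and 73 without bull 4, and 27 and 40 without its 10-month library alone. Scaled by library totals, 1 was called higher and 316 lower. The level of bta-mir-2285aa was 26.0, 19.2, 26.0 and 67.4 normalized CPM in bulls 1 to 4 at 10 months, 95.3, 48.2, 50.8 and 101 at 12 months and 43.0, 33.4, 24.9 and 90.2 at 16 months. Each bull peaked at 12 months, though by little in bull 4 (log2 fold change 0.95 ± 0.19 (SE), 1.94-fold, edgeR, adjusted p = 0.0276). bta-mir-2482 was at 12.8, 16.7, 9.04 and 53.6 normalized CPM in bulls 1 to 4 at 10 months, 36.7, 50.6, 37.0 and 55.3 at 12 months and 23.1, 30.4, 8.64 and 60.0 at 16 months. It peaked in bulls 1 to 3, and in bull 4 the 3 libraries were nearly level (log2 fold change 1.06 ± 0.23 (SE), 2.09-fold, edgeR, adjusted p = 0.0374). With the hairpins alone in the fit, normalized among themselves, the adjusted p-values were 0.0246 and 0.0461. With library totals bta-mir-2285aa was at 0.45 (edgeR, unadjusted p = 0.0655) and bta-mir-2482 at 0.57 (unadjusted p = 0.0215), and neither was called.

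Other hairpins were above the mean of the other ages in 4 of 4 bulls and were called, without passing the adjustment over all 12 libraries. bta-mir-584-7 was at 113, 57.0, 88.4 and 201 normalized CPM in bulls 1 to 4 at 10 months, 225, 161, 246 and 289 at 12 months and 209, 133, 152 and 124 at 16 months. All bulls peaked at 12 months, and the log2 fold change was 0.81 ± 0.20 (SE) (edgeR, adjusted p = 0.124), or 1.00 without the 10-month library of bull 4 (edgeR, adjusted p = 0.00656). The 7 other copies of the mir-584 hairpin did not share this, with log2 fold changes from -0.46 to 0.24 and unadjusted p-values of 0.0653 or more. Reads of near-identical copies may have been split between them, so the value of 1 copy is uncertain. bta-mir-2311 was at 634, 92.0, 284 and 1091 normalized CPM in bulls 1 to 4 at 10 months, 811, 384, 973 and 1217 at 12 months and 579.7, 167, 571 and 1106 at 16 months, also with a peak in each bull (0.88 ± 0.22 (SE), edgeR, adjusted p = 0.131, and 0.0263 without the 10-month library of bull 4). The levels of the bulls differed more than the ages did, with bull 2 lowest throughout. bta-mir-2436 (0.61 ± 0.17 (SE)) and bta-mir-2440 (0.66 ± 0.19 (SE)) had smaller differences, edgeR adjusted p = 0.248 for each. bta-mir-2436 peaked in 4 of 4 bulls and bta-mir-2440 in bulls 1, 2 and 4. With library totals bta-mir-584-7 (0.33), bta-mir-2311 (0.38), bta-mir-2436 (0.13) and bta-mir-2440 (0.18) were not called. bta-mir-2436 and bta-mir-2440 also fell under the 1.5-fold rule without bull 1 (0.57 for each) or bull 4 (0.55 and 0.57).

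bta-mir-34b belongs to the mir-34 and mir-449 group of hairpins, which is known to be needed for male germ cell maturation. It had 16, 22, 11 and 22 counts in bulls 1 to 4 at 10 months, 27, 12, 12 and 32 at 12 months and 8, 6, 15 and 13 at 16 months. In normalized CPM, these came to 4.78, 4.18, 3.11 and 6.48 in bulls 1 to 4 at 10 months, 10.0, 4.13, 4.36 and 10.7 at 12 months and 3.19, 1.80, 3.70 and 4.78 at 16 months. The 12-month values were the highest in bulls 1, 3 and 4, and level with 10 months in bull 2, with a log2 fold change of 0.82 ± 0.27 (SE) (edgeR, unadjusted p = 0.00484, adjusted p = 0.378), and 0.61 without bull 1, where the call was lost, as it was with library totals (0.35). It was 0.59 ± 0.30 against 10 months and 1.04 ± 0.32 against 16 months. Of the 6 germ cell hairpins it was the only one called, with log2 fold changes for the others of 0.21 (mir-34c), 0.35 (mir-449a), -0.36 (mir-449b), -0.67 (mir-449c) and -0.56 (mir-202), and a median of -0.08 for the 6 against -0.04 for all hairpins.

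Of the 797 hairpins 66 were lower and 37 higher in 4 of 4 bulls, beside 348 and 293 of all 4651 sequences. The 6 lower ones with the smallest p, at a mean of 10 counts or more, were bta-mir-2285e-1, bta-mir-2340, bta-mir-2420, bta-mir-211, bta-mir-143 and bta-mir-140, with edgeR adjusted p-values of 0.221 to 0.424. bta-mir-2285e-1 had 16, 12, 25 and 27 counts in bulls 1 to 4 at 10 months, 6, 4, 8 and 8 at 12 months and 18, 16, 26 and 10 at 16 months. The log2 fold change of this hairpin came to -1.24 ± 0.34 (SE), at 1.38 to 2.90 normalized CPM at 12 months against 2.28 to 7.95 at the other ages, so the groups overlapped only through bull 2 at 10 months. bta-mir-2420 was at 11.3, 6.84, 7.63 and 8.54 normalized CPM in bulls 1 to 4 at 10 months, 5.56, 5.16, 4.72 and 3.69 at 12 months and 7.56, 7.51, 9.88 and 8.10 at 16 months. All 4 values at 12 months lay below the 8 others (log2 fold change -0.81 ± 0.24 (SE)). bta-mir-2340 (-0.70 ± 0.20 (SE)) was at 15.8, 17.1, 22.0 and 9.42 normalized CPM in bulls 1 to 4 at 10 months, 9.27, 13.1, 9.07 and 8.38 at 12 months and 15.5, 21.0, 23.0 and 9.20 at 16 months. It was lowest at 12 months in each bull, by little in bull 4. The separate differences were -1.20 ± 0.37 against 10 months and -1.28 ± 0.38 against 16 months for bta-mir-2285e-1, and -0.83 ± 0.27 against 10 months and -0.80 ± 0.28 against 16 months for bta-mir-2420.

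bta-mir-143, a hairpin typical of smooth muscle and stroma, was at 9.26, 7.99, 7.63 and 9.13 normalized CPM in bulls 1 to 4 at 10 months, 4.08, 7.92, 4.36 and 4.36 at 12 months and 8.76, 8.11, 9.63 and 7.36 at 16 months, the lowest in each bull and nearly level in bull 2 (log2 fold change -0.71 ± 0.24 (SE)). bta-mir-140, known from cartilage, had a log2 fold change of -0.54 ± 0.19 (SE) and was lowest at 12 months in 4 of 4 bulls. It missed the 1.5-fold rule, and passed it without the 10-month library of bull 4 (-0.62). bta-mir-211, hosted in a gene of the pigment lineage in mammals, was low mostly against 10 months. It was at 641, 326, 439 and 204 normalized CPM in bulls 1 to 4 at 10 months, 199, 175, 193 and 179 at 12 months and 217, 145, 409.7 and 205 at 16 months, and its differences were -1.02 ± 0.25 against 10 months and -0.31 ± 0.25 against 16 months. The calls of bta-mir-211 and bta-mir-2340 were lost without bull 3 (-0.51 and -0.50), and that of bta-mir-211 also without bull 1 (-0.57).

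**Figure D4:**
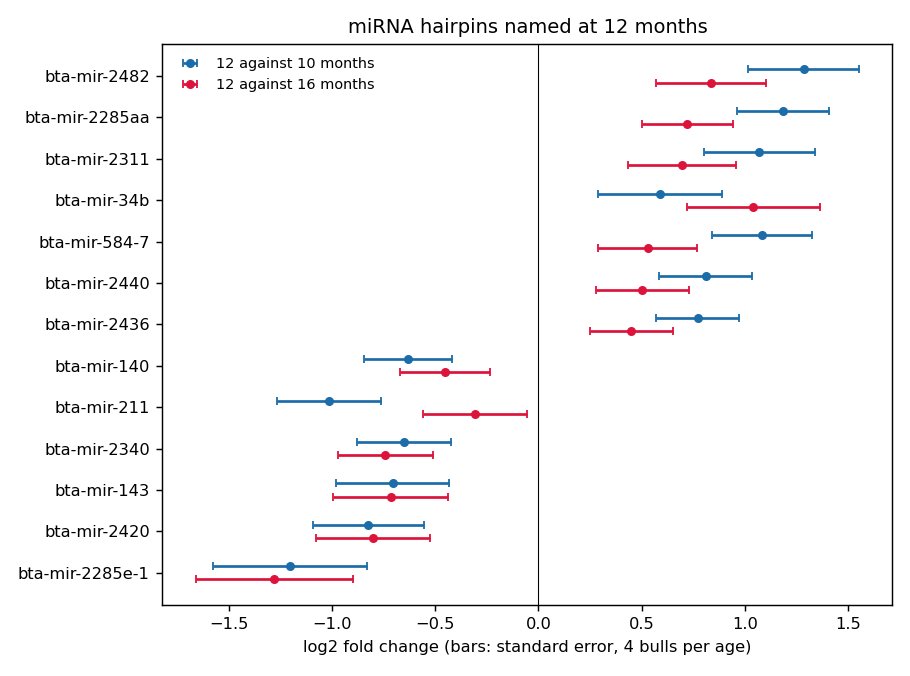
Log2 fold change of 12 against 10 months (blue) and of 12 against 16 months (red) for 13 miRNA hairpins, those with the smallest p in each direction among hairpins of 1 sign in 4 of 4 bulls or over both comparisons. Bars are 1 standard error derived from the edgeR fit of all 12 libraries, with 4 bulls per age. Both values lie on the same side of 0 for these 13, and of them bta-mir-211 has the widest gap (-1.02 and -0.31). The 2 comparisons share the 12-month libraries.

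The bovine mir-2284 and mir-2285 hairpins are a large ruminant family of similar copies, and 13 of their 101 tested members were called (12.9%), 6 higher and 7 lower, beside 28 of the 696 other hairpins (4.02%). The family was measured at lower counts, with a median of 12.1 per library against 30.8 for the other hairpins, and the part of this in the calls was not tested. Of mir-2284 names 8 of 44 were called and of mir-2285 names 5 of 57. Called members lay on both sides of 0, and the family had a median log2 fold change of 0.07, beside -0.04 for all hairpins. Besides bta-mir-2285aa, bta-mir-2284g was highest at 12 months in 4 of 4 bulls, at 3.28, 3.61, 2.26 and 4.42 normalized CPM in bulls 1 to 4 at 10 months, 7.79, 6.89, 6.53 and 6.70 at 12 months and 4.78, 4.81, 5.43 and 4.78 at 16 months (log2 fold change 0.75 ± 0.25 (SE), edgeR, adjusted p = 0.395), and was not called with library totals (0.27). bta-mir-2284q was lowest in 4 of 4, at 9.85, 5.70, 9.32 and 6.48 normalized CPM in bulls 1 to 4 at 10 months, 3.71, 4.13, 5.81 and 4.69 at 12 months and 7.17, 6.91, 7.41 and 5.52 at 16 months (-0.65 ± 0.25 (SE), edgeR, adjusted p = 0.457), and lost its call without bull 1 (-0.50). The closest relative of bta-mir-2285e-1, bta-mir-2285e-2, differed by only 0.09. Without the 10-month library of bull 4, 12 of the 101 and 46 of the 696 were called.

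Of the 60 tRNA names tested 1 was called, SerACT (1.67%, beside 4.62% of all sequences), and 2 had an unadjusted p of at most 0.05, beside 360 of the 4651, with a median log2 fold change of -0.03. SerACT, which reads a serine codon, had 11, 23, 14 and 14 counts in bulls 1 to 4 at 10 months, 27, 19, 10 and 26 at 12 months and 14, 8, 13 and 15 at 16 months. In normalized CPM it was at 3.28, 4.37, 3.96 and 4.12 in bulls 1 to 4 at 10 months, 10.0, 6.54, 3.63 and 8.71 at 12 months and 5.57, 2.40, 3.21 and 5.52 at 16 months. On that scale the 12-month library was the highest of the 3 in bulls 1, 2 and 4, with a log2 fold change of 0.79 ± 0.27 (SE) (edgeR, unadjusted p = 0.0067, adjusted p = 0.405), and its call was lost without bull 1 (0.64) and with library totals (0.32). SeC(e)TCA, the eukaryotic selenocysteine tRNA that inserts selenocysteine at a recoded stop codon, was measured far more precisely. Its level was 1692, 1256, 852 and 1415 normalized CPM in bulls 1 to 4 at 10 months, 2106, 1495, 986 and 2139 at 12 months and 1384, 971, 637 and 1250.5 at 16 months. The 12-month library was the highest in 4 of 4 bulls, with a log2 fold change of 0.50 ± 0.18 (SE) (edgeR, unadjusted p = 0.00986, adjusted p = 0.433), under the 1.5-fold rule, and 0.02 with library totals. It was 0.34 ± 0.21 against 10 months and 0.66 ± 0.21 against 16 months.

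LeuTAG and GlyTCC were also highest at 12 months in 4 of 4 bulls, by 0.34 ± 0.16 (SE) and 0.33 ± 0.19 (SE) on the log2 scale, which turned to -0.15 and -0.16 with library totals, both still above the median of all sequences under that scaling. GlyTCC was at 2617, 2359, 2139 and 2205 normalized CPM in bulls 1 to 4 at 10 months, 3550.4, 3494, 3192 and 2503 at 12 months and 3168, 2969, 2335 and 2446 at 16 months. The difference against 16 months was small in bull 4. The tRNA names with the lowest p below 0 were ThrGGT (-0.76 ± 0.46 (SE)), IleTAT (-0.19 ± 0.17 (SE)), AlaCGC (-0.20 ± 0.18 (SE)) and MetCAT (-0.17 ± 0.18 (SE)), none with an unadjusted p of at most 0.05. IleTAT was lowest at 12 months in 4 of 4 bulls, at 38.2, 36.9, 40.4 and 38.3 normalized CPM in bulls 1 to 4 at 10 months, 24.5, 31.7, 34.5 and 34.2 at 12 months and 26.3, 34.9, 34.6 and 35.7 at 16 months. By amino acid, the glycine tRNAs held 41.9% of tRNA counts and had a median of 0.05 over 4 names, the leucine tRNAs held 12.9% with 0.05 over 5, and the glutamate tRNAs held 9.07% with -0.08 over 2. The summed level of the selenocysteine names was highest at 12 months in 4 of 4 bulls.

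The miRNAs and the tRNA fragment that the study lists as different at 12 against 16 months can be placed by their level at 10 months. They were chosen on libraries used here, so the values are a description. bta-mir-759 had 3, 6, 5 and 10 counts in bulls 1 to 4 at 10 months, 12, 10, 13 and 7 at 12 months and 0, 5, 3 and 2 at 16 months. At 12 months it was above 10 months in bulls 1, 2 and 3 and above 16 months in 4 of 4, in counts and in normalized CPM, with differences of 1.26 ± 0.50 against 10 months and 2.22 ± 0.59 against 16 months. Its adjusted p in edgeR was 0.183, and 0.0374 without the 10-month library of bull 4. bta-mir-302a, of the pluripotency cluster, had 13, 14, 4 and 5 counts in bulls 1 to 4 at 10 months, 3, 5, 1 and 7 at 12 months and 4, 12, 14 and 12 at 16 months, and its 12-month level was under that at 16 months in each bull and under that at 10 months in bulls 1 to 3. bta-mir-34b, bta-mir-2285e-1, bta-mir-2340 and SeC(e)TCA are given with their values by library in other paragraphs. bta-mir-2284z-2 had 2, 2, 5 and 7 counts in bulls 1 to 4 at 10 months, 4, 6, 2 and 3 at 12 months and 2, 0, 0 and 1 at 16 months, so 12 and 10 months were alike in range. bta-miR-219 had 0 counts in the 4 libraries at 12 months, which allows up to 3 counts in each, and 0, 3, 0 and 1 at 10 months and 4, 1, 2 and 1 at 16 months. bta-miR-2334 had 4, 5, 4 and 2 counts in bulls 1 to 4 at 10 months, 2, 1, 1 and 0 at 12 months and 5, 2, 10 and 3 at 16 months, the lowest at 12 months in normalized CPM in 4 of 4 bulls. No fold is given for these last 3.

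Hairpins with a known place of expression were grouped in lists, whose counts stand beside the 5.14% called of all hairpins and 4.62% of all sequences. The lists are too short to set their share of calls apart from these. In the let-7 family, regulators of developmental timing, 0 of 13 were called and 2 had an unadjusted p of at most 0.05, bta-let-7a-1 (-0.44 ± 0.21 (SE)) and bta-mir-98 (-0.45 ± 0.19 (SE)), both lower in 4 of 4 bulls. The family's median was 0.16, and 0.05 without bta-let-7a-3p, which had 1 count in all. Of the 16 tested members of the mir-17-92 cluster and its paralogs, which promote proliferation, 2 were called lower, bta-mir-93 (-0.65 ± 0.25 (SE)) and bta-mir-106a (0 to 3 counts per library at 12 months), whose call was lost without bull 1, 2 or 3. bta-mir-20b (-0.58 ± 0.22 (SE)) and bta-mir-19b-2 (-0.50 ± 0.23 (SE)) were lower in 4 of 4 bulls with unadjusted p-values of 0.0118 and 0.0342 in edgeR, the former past the 1.5-fold rule without the 10-month library of bull 4 (-0.62), and the list's median was 0.09. bta-mir-19b-2 was low against 10 months only, with differences of -1.07 ± 0.25 against 10 months and 0.07 ± 0.26 against 16 months, was lowest at 12 months in 1 of 4 bulls and came to -0.14 without bull 3. Without bull 2, bta-mir-93 was at -0.20 and lost its call, since that bull was at 46.2 normalized CPM at 10 months, 11.4 at 12 months and 47.5 at 16 months. Among 33 names known to be abundant in mammalian sperm, bta-mir-93 was the only one called, and the median was 0.05, or 0.0023 without bta-let-7a-3p.

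Hairpins known as markers of other cells that semen can hold had counts at each age, and the source of these reads was not tested. Their calls also stand beside the 5.14% of all hairpins. Of 3 red blood cell hairpins 1 was called, bta-mir-144, at 915, 171, 575 and 192 normalized CPM in bulls 1 to 4 at 10 months, 269, 56.1, 164 and 237 at 12 months and 298, 56.8, 404 and 188 at 16 months. It was lowest at 12 months in bulls 1, 2 and 3 and highest in bull 4, with a log2 fold change of -0.75 ± 0.25 (SE) (edgeR, unadjusted p = 0.00618, adjusted p = 0.395), and -0.51 without bull 3, where the call was lost. Without the 10-month library of bull 4 it was -0.96 (edgeR, adjusted p = 0.0374). Most of it lay against 10 months (-1.24 ± 0.29, and -0.26 ± 0.28 against 16 months). The bta-mir-144 hairpin averaged 982 counts per library, while the mature bta-miR-144 averaged 0.333 and bta-mir-451 12.3. The summed level of the 3, nearly all mir-144, ran from 188 to 929.8 normalized CPM at 10 months, 67.8 to 284 at 12 months and 67.6 to 425 at 16 months. The other 2, mir-451 (-0.25) and mir-486 (0.03), did not pass. White blood cell hairpins gave 0 calls of 6 (summed level 147 to 293 at 10 months, 132 to 223 at 12 months and 127 to 309.7 at 16 months), epithelial hairpins 0 of 6 (198 to 517, 144 to 289 and 117 to 265), and neither had a member with an unadjusted p of at most 0.05.

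Striated muscle hairpins gave 1 call of 9 (beside 5.14% of all hairpins), bta-mir-133a-2 (-0.70 ± 0.27 (SE)), lost without bull 1 (-0.61) or bull 3 (-0.44) and also mostly against 10 months (-1.15 ± 0.29, and -0.24 ± 0.32 against 16 months), with a summed level of 513 to 3228 at 10 months, 366 to 3288 at 12 months and 333 to 2198 at 16 months. Stromal hairpins gave 1 of 6, bta-mir-143, with a summed level of 262 to 768 at 10 months, 642 to 797 at 12 months and 450.3 to 855 at 16 months, most of it mir-145, which itself had a log2 fold change of 0.32. Pluripotency hairpins gave 1 of 6, bta-mir-302a (-0.99 ± 0.47 (SE)), lost without bull 1, 2 or 3. The medians of these lists were -0.25 for red blood cells, -0.15 for white blood cells, -0.06 for epithelium, -0.04 for striated muscle, -0.15 for stroma and 0.20 for pluripotency, beside -0.04 for all hairpins. No listed marker of these cells that had a hairpin name in the reference was at 0 in all libraries. The epithelium list also named mir-203, for which the reference held no hairpin of that name. The part of somatic RNA in the differences at 12 months was not tested.

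**Figure D5:**
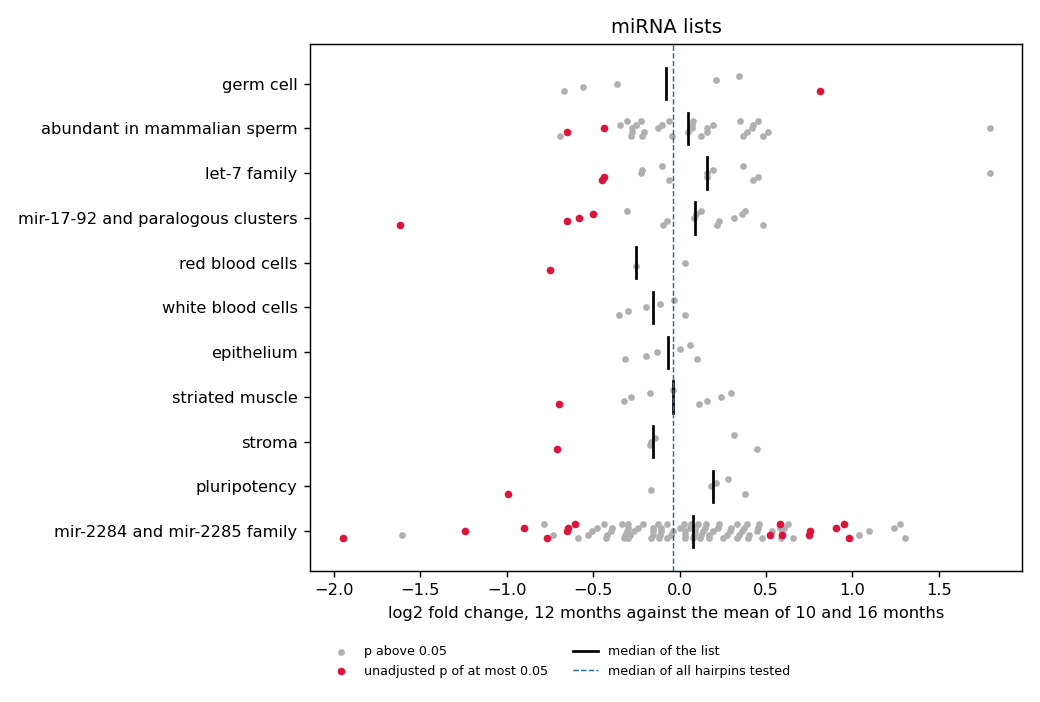
Log2 fold change at 12 months against the mean of 10 and 16 months (horizontal axis) of each tested member of 11 miRNA lists (rows), with red points at an unadjusted p of at most 0.05, a black bar at each list's median and a dashed line at the median of all hairpins (-0.04). The list medians lie between -0.25 and 0.20, and the mir-2284 and mir-2285 row has red points on both sides.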

How the data were processed

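The members and lists were chosen with earlier results of these data known. The submitters' processing notes name Trimmomatic 0.36, Bowtie 1.2.2 and DESeq. The authors aligned trimmed reads to a reference built from bovine miRNA, tRNA and other non-coding RNA sequences and deposited counts per reference sequence, without normalization. The genome build, the mismatches allowed and the treatment of reads with several matches are not given in the sources used here, and the last of these affects copies of 1 hairpin. Of the deposited files 3 were not used, a table of these counts after size-factor division and the authors' tables of fold changes and p-values for 10 vs 16 and 12 vs 16 months.

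All 12 libraries entered 1 fit, over every sequence with at least 1 count, by edgeR 4.0.16's quasi-likelihood test in R 4.3.3 with TMM scaling, age and the bull as a block. The contrast was 12 months minus the mean of 10 and 16 months. A sequence was called when it differed 1.5-fold or more at an unadjusted p up to 0.05, the thresholds of the study, and Benjamini-Hochberg adjustment was over all sequences. Fold changes are fitted by edgeR with its prior count. Each standard error (SE) is the absolute log2 fold change divided by the square root of the test's F statistic. It thus comes from the fit of all 12 libraries and is not a spread measured over the 4 bulls. Shares were tested by drawing the focal age within bulls in all 81 ways, which cannot give a p below 0.0123 (numpy 2.4.6, pandas 2.3.3). Counts of reads carry no molecular identifiers, so amplified copies count separately and the floor of 3 counts covers counting error only. P-values in edgeR rest on the variation between libraries that is left after the effects of age and bull. The exact p-values rest on redrawing the focal age within bulls.

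The bull numbers in the sample titles pair the libraries. Deviations from the age means correlated at 0.174 to 0.504 between libraries of the same bull (12 pairs) and at -0.467 to 0.207 between bulls (36 pairs), across 3442 sequences, which are not independent replicates.

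Named were the 10 most abundant sequences and, per direction, the 6 sequences and the 6 hairpins with the smallest p, a mean of at least 10 counts and 1 sign in 4 of 4 bulls. The rule added the 4 tRNA names with the smallest p, the sequences past both comparisons with the smallest larger p, the names listed by the study at 12 vs 16 months, list members at an unadjusted p up to 0.05, and copies of named miRNAs. The lists were germ cell, sperm, let-7, mir-17-92, red and white blood cell, epithelium, striated muscle, stroma, pluripotency and the mir-2284 and mir-2285 family. The alternatives were library totals, DESeq2 size factors, filterByExpr, no block, DESeq2 1.42.0 with the block, leaving out the 10 most abundant sequences, the 10-month library of bull 4 or each bull, and other denominators for shares. A fit of the hairpins alone was added after seeing the data. The scripts were tested on simulated data.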

Additional observations from a re-analysis of the deposited data

Results flagged for a closer look

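Within a group of 4 libraries, 14 of 171 groups examined had a highest or lowest value whose gap to its nearest neighbour took more of the group's range than the 95% critical value, and chance gives about 1 in 20 groups. At 10 months bull 4 held 40.1% of its counts in the most abundant sequence, against 8.93% to 14.2% in the other bulls (gap 0.831 of the range), and was the highest for bta-mir-2285aa (0.859) and ENSBTAT00000059605.1 (0.964). Bull 2 was the highest for LeuTAG at 10 months (0.957) and at 16 months (0.913) and for ThrGGT at 10 months (0.861). Bull 1 at 10 months was the lowest for ENSBTAT00000060563.1 (0.984). Of the 12-month groups, ENSBTAT00000059542.1 had bull 3 the highest (0.865) and bta-mir-143 had bull 2 the highest (0.928), at 7.92 normalized CPM against 4.08 to 4.36. At 16 months bull 3 was the highest for ENSBTAT00000065015.1 (0.840), ENSBTAT00000062556.1 (0.937, at 40.5 normalized CPM against 11.7 to 13.5) and ENSBTAT00000060030.1 (0.931). Bull 1 at 16 months was the lowest for IleTAT (0.881) and the highest for bta-miR-219 (0.850), which rests on 4 counts.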

How the results depend on the processing

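Over 71 named sequences and the planned settings, 624 of 762 values kept their direction and their side of the unadjusted threshold, 108 fell short of it and 18 newly passed it, and 12 reversed. Library totals gave 14 sequences higher and 1226 lower, 321 lower after adjustment, 1 miRNA higher and 316 lower, and 5 higher and 590 lower past both comparisons. They turned ENSBTAT00000060574.1 to -0.12, ENSBTAT00000042241.1 to -0.34, LeuTAG to -0.15, GlyTCC to -0.16, bta-mir-2285e-2 to -0.45 and bta-mir-584-4 to -0.36 on the log2 scale. The lower TMM factors at 12 months produce this shift. With no replicate block, that is without the pairing by bull, 0 passed the adjustment in either direction, and 30 higher and 12 lower passed both comparisons. filterByExpr also left 0 in either direction, and DESeq2's size factors changed no count by over 1.5 times. DESeq2 with the block called 89 higher, 10 miRNAs higher and 2 lower after adjustment, with 34 higher and 9 lower past both. Leaving out the 10-month library of bull 4 gave 19 higher and 4 lower after adjustment.

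Leaving out each bull gave 62 to 145 sequences called lower, 0 to 33 higher and 0 to 12 lower after adjustment, 13 to 30 miRNAs higher and 14 to 73 lower, and 16 to 49 lower past both. Shares then ranged from -2.19 to -0.940 percentage points for miRNAs, -0.901 to -0.471 for tRNAs, 1.44 to 3.09 for other RNAs, 9.37 to 22.2 for the most abundant sequence and 6.54 to 13.2 for the 10 most abundant. Log2 fold changes ran from -0.30 to 0.086 for ENSBTAT00000050869.1, -0.21 to 0.18 for ENSBTAT00000060557.1, -0.31 to 0.017 for ENSBTAT00000062433.2, -0.075 to 0.27 for bta-mir-2285e-2 and -0.055 to 0.30 for bta-mir-584-4. The tRNA difference was -0.229 without the most abundant sequence and 0.441 without the 10 most abundant. Under the 16 sign patterns, which cannot reach p = 0.05 by an exact test, the tRNA (-0.632), most abundant (15.9) and 10 most abundant (9.42) differences no longer passed. Except where construction shows it, the cause was not tested. Of mature miRNAs 35 of 292 averaged 10 counts or more, of hairpins 662 of 797 and of tRNA names 58 of 60.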
